A study of Homo sapiens with 15 samples.

Results

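The prostaglandin and leukotriene pathway was followed through 10 genes, *PLA2G4A*, *PTGS1*, *PTGS2*, *PTGES*, *PTGES2*, *PTGES3*, *PTGDS*, *PTGER2*, *PTGER4* and *ALOX5AP*, in RNA-seq of ANGPTL4 knockout (A4KO) and wild-type (WT) cells. The genes were taken by symbol, and all 10 had a row among the 16296 genes measured in CAKi-1 and the 16188 measured in 786O, of which 15247 are shared. They were selected on earlier results of these data, in which their A4KO and WT levels in both lines were known, so their differences between A4KO and WT are given as descriptions. How many passed the cut-offs of the fit is counted, but no p-value is given for them and the counts are not used as a test.

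CAKi-1 and 786O are human clear cell renal cell carcinoma (ccRCC) cell lines. CAKi-1 carries wild-type VHL, the tumor suppressor that marks hypoxia-inducible factors for destruction, and 786O carries mutant VHL. The data hold 4 CAKi-1 WT, 5 CAKi-1 A4KO, 3 786O WT and 3 786O A4KO libraries, and address what changes in transcription when ANGPTL4, a secreted inhibitor of lipoprotein lipase, is lost. A4KO cells of each line had been given Cas9 protein and guide RNA against *ANGPTL4*, and clones that had lost it were mixed, so each A4KO group is a mixture of clones. The 786O WT cells are a mixture of clones from the same procedure that kept *ANGPTL4*. For CAKi-1 WT the sources differ, one naming such clones and the other the parental cells, so a difference between edited and unedited cells cannot be told apart from one of genotype there. In both lines the A4KO clones are other cells than those of WT, so differences between clones cannot be told apart from genotype. Cells of all groups grew in serum-supplemented medium without further treatment and were harvested before confluency. No source says that the libraries of a group were separate cultures, and the p-values below then measure the spread between libraries, which may be technical.

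Values are TPM, in which the reads of each gene are related to its length and to the whole library, so levels of different genes can be set side by side. The labels state a nominal depth of 3000000 reads per sample, but TPM keeps no read number for each library, so no counting interval is given. Totals ran from 961437 to 973887 TPM per library, and the share in mitochondrial genes was 6.39% to 7.88% in CAKi-1 WT and 6.58% to 8.00% in A4KO, but 7.47% to 8.16% in 786O WT and 9.46% to 10.0% in A4KO, without overlap. The part of this share in the 786O differences was not tested. *ANGPTL4* itself fell from 71.7 to 86.9 TPM in CAKi-1 WT to between 2.87 and 7.26 TPM in A4KO, a log2 fold change of -3.96 (SE 0.253, limma adjusted p = 1.2e-05). A4KO replicates 1 and 4 kept the most, 7.26 and 6.47 TPM, against 2.87 to 2.90 TPM in replicates 2, 3 and 5. Without replicates 1 and 4 the log2 fold change was -4.36 (SE 0.0717). In 786O *ANGPTL4* fell from 17.6 to 20.6 TPM to between 1.86 and 2.19 TPM, a log2 fold change of -2.69 (SE 0.0737, limma adjusted p = 1.57e-06). The A4KO clones had been chosen by their *ANGPTL4* RNA, so these values check the labels and their p-values are not an independent test. CAKi-1 A4KO replicates 1 and 4 resembled each other (root mean square distance 0.187 on the log2 scale) and stood 0.323 to 0.379 away from A4KO replicates 2, 3 and 5, while CAKi-1 WT libraries lay 0.171 to 0.295 apart and the 786O libraries of a group 0.174 to 0.181. CAKi-1 values without A4KO replicates 1 and 4 are therefore given for a number of the genes that those libraries move or set apart. Of 10 renal and ccRCC markers, 8 had a row in CAKi-1 (*PAX2* and *CA9* did not) and 10 in 786O. Among the 4 endothelial markers *VWF*, *CDH5* and *KDR* had no row in either line, and of the 8 leukocyte markers the pan-leukocyte gene *PTPRC* averaged 0.372 and 0.288 TPM in CAKi-1 WT and A4KO and 0.208 and 0.272 TPM in 786O WT and A4KO.

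Prostanoids and leukotrienes are short-lived lipid signals made from arachidonic acid. Cytosolic phospholipase A2 (*PLA2G4A*) frees arachidonic acid from membranes. The cyclooxygenases *PTGS1*, the mostly constitutive isoform, and *PTGS2*, the inducible one, turn it into prostaglandin H2, from which terminal synthases make prostaglandin E2 (*PTGES*, *PTGES2*, *PTGES3*) or prostaglandin D2 (*PTGDS*). Prostaglandin E2 acts through receptors that include EP2 (*PTGER2*) and EP4 (*PTGER4*), both of which raise cyclic AMP. In the leukotriene branch, the membrane protein FLAP (*ALOX5AP*) presents arachidonic acid to 5-lipoxygenase. In the kidney, prostaglandins take part in the control of blood flow and salt handling.

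The start regions of 5 of the genes are shown, the 3 whose level was higher in CAKi-1 A4KO and lower in 786O A4KO by a log2 fold change of at least 1 (*PTGDS*, *ALOX5AP*, *PTGER2*), and the pair that varied together between CAKi-1 libraries (*PTGS2*, *PTGES*). Each is the 150 bases before the RefSeq start, 5′ to 3′ on the gene's strand in GRCh38.p14, with motif matches in capitals. They lie at chr9:136977354-136977503 (plus strand), chr13:30713335-30713484 (plus), chr14:52314162-52314311 (plus), chr1:186680424-186680573 (minus) and chr9:129753043-129753192 (minus).
PTGDS: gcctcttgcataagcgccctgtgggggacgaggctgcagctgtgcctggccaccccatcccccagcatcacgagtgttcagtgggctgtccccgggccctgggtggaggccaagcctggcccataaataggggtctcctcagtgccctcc
ALOX5AP: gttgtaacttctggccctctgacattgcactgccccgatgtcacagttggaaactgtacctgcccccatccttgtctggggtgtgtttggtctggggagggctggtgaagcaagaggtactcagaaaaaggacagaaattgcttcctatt
PTGER2: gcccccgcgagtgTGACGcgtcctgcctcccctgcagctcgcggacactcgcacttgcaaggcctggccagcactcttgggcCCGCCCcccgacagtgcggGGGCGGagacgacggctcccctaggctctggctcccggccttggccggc
PTGS2: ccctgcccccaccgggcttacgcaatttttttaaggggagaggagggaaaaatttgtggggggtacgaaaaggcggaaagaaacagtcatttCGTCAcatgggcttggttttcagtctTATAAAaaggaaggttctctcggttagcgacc
PTGES: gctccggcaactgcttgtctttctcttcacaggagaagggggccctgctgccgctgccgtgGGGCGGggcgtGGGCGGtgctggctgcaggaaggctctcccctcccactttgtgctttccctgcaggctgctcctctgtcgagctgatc

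The search covered the 250 bases before each of 35116 RefSeq starts for the TATA box TATAAA (gene's strand) and, on both strands, the CCAAT box CCAAT, the GC box GGGCGG, the hypoxia response core ACGTG, the cyclic AMP response core TGACG and the AP-1 motif TGANTCA. These were held by 6.80%, 32.0%, 42.6%, 18.5%, 21.2% and 6.57% of all starts. Positions are those of the first base shown, counted back from the start, and no matches shown overlap. *PTGS2* held a TATA box at -32, a TGACG match at -58 and, upstream of the stretch shown, a CCAAT box at -201. *PTGES* held 2 GC boxes, at -89 and -78, and no TATAAA. *PTGER2* held 2 GC boxes, at -68 and -49, and a TGACG match at -137. *PTGDS* and *ALOX5AP* held none of the motifs. The 250 bases held 28 CpG in *PTGER2* against 5 in *PTGDS* and 3 in *ALOX5AP*, beside a median of 11 over all starts, so the 3 genes that differed in opposite directions in the lines did not share a motif of this set or a CpG content. The last bases of the *PTGER2* and *ALOX5AP* stretches fall in the first exon as GENCODE draws it, and the whole *PTGDS* and *PTGS2* stretches lie within the gene as GENCODE draws it, downstream of its outermost start and outside its exons.

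In WT cells the pathway had a different profile in each line. Among the 10 genes, *PTGES3* was the highest in both, with 609 ± 13.6 TPM (SD, n = 4) in CAKi-1 WT and 319 ± 3.07 TPM (SD, n = 3) in 786O WT. In CAKi-1 WT *PTGES2* followed at 79.9 ± 5.96 TPM, and then a group from *PTGS1* (6.11 ± 0.749 TPM) through *PTGDS*, *PTGES*, *PLA2G4A* and *PTGS2* to *ALOX5AP* (1.53 ± 0.149 TPM) in which each gene's range met that of the next. *PTGER2* and *PTGER4* came last, at 0.523 ± 0.151 and 0.257 ± 0.0758 TPM. In 786O WT the second place was held by *PTGDS* at 308 ± 6.79 TPM, and both receptors stood above *ALOX5AP* and *PTGES*, while *PLA2G4A*, *PTGS2* and *PTGS1* overlapped at the bottom, with means of 0.928, 0.857 and 0.800 TPM. The tables of the lines were deposited separately, so these levels stand side by side without a test.

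**Figure D1:**
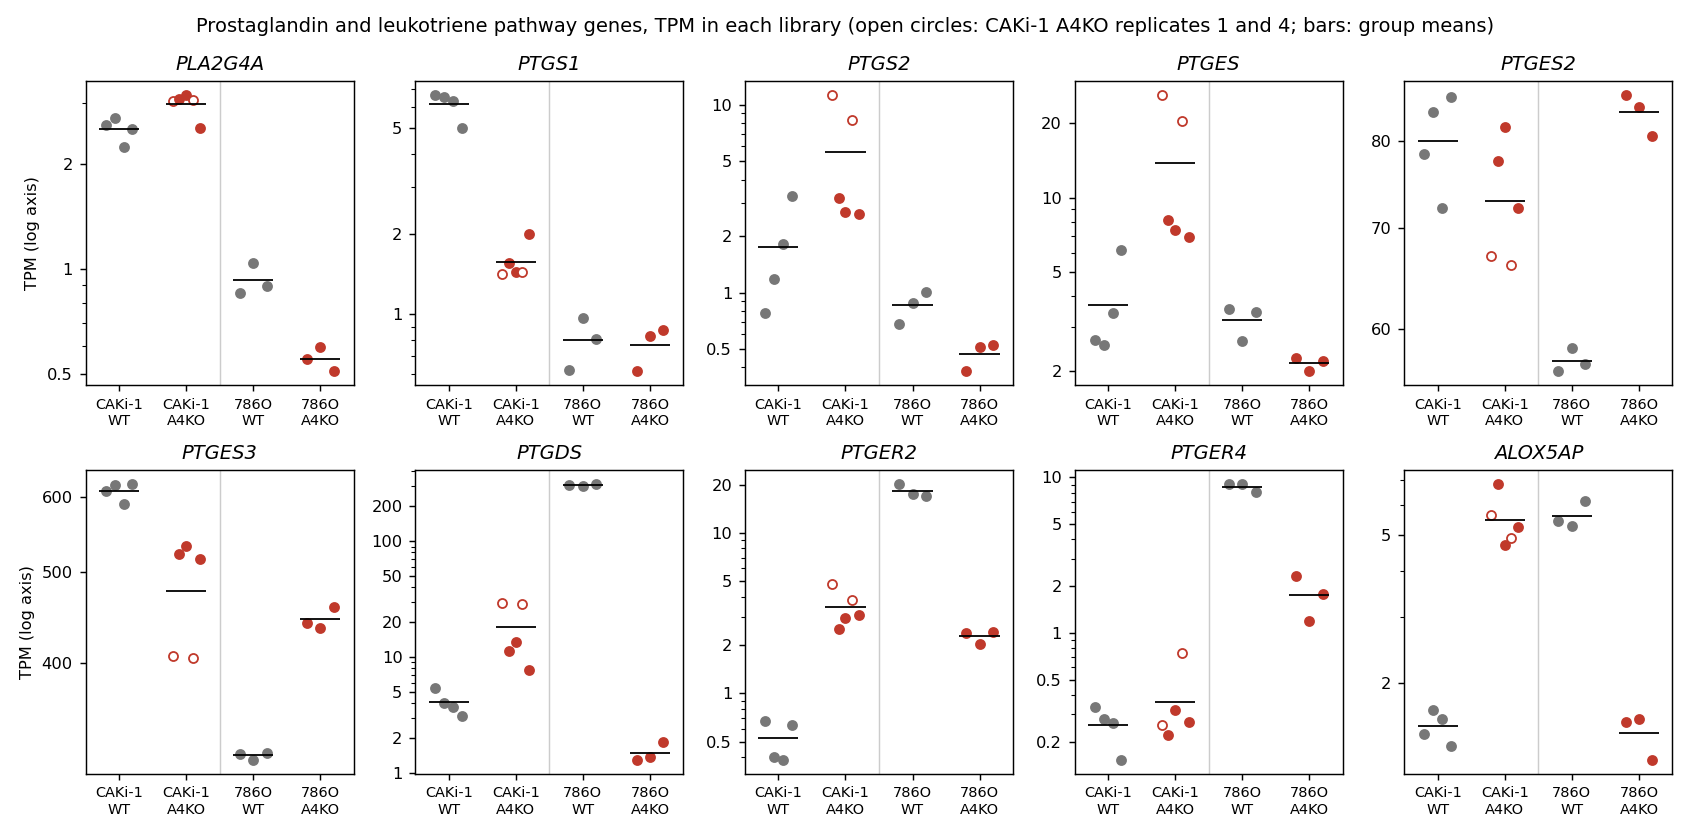
TPM (log axis) of the 10 prostaglandin and leukotriene pathway genes in each CAKi-1 and 786O library, WT in grey and A4KO in red, with bars at the group means. The open circles, CAKi-1 A4KO replicates 1 and 4, sit apart from replicates 2, 3 and 5 for *PTGS2*, *PTGES* and *PTGDS*, but not for *ALOX5AP*.

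Of the 10 genes, 4 were called higher in CAKi-1 A4KO (*PTGDS*, *PTGES*, *PTGER2*, *ALOX5AP*), where a call needs a log2 fold change of 1 or more in size with a limma adjusted p of 0.05 or less, beside 2.21% of all genes. Called lower was 1 gene (*PTGS1*), beside 1.12% of all genes. By adjusted p alone 4 were higher (17.9% of all genes) and 2 lower (21.1%), and the libraries of 6 did not overlap between WT and A4KO (35.9%). In 786O A4KO 0 were called higher (2.43% of all genes) and 4 lower (5.19%), namely *PTGDS*, *PTGER2*, *PTGER4* and *ALOX5AP*. By adjusted p alone 2 were higher (27.5%) and 7 lower (33.5%), and the libraries of 9 did not overlap (66.9%). Called higher in CAKi-1 and lower in 786O were 3 genes, beside 0.531% of the genes in both tables. The groups did not overlap in opposite directions in the lines for 5 genes (16.1%) and in the same direction for 0 (12.2%). Since the genes were picked with these differences known, the counts describe the selection. The median log2 fold change of the 10 genes was 0.66 in CAKi-1 and -0.37 in 786O, against -0.01 and -0.03 over all genes. In bulk RNA from mixed clones, a change in the share of a clone and a change in the RNA of each cell cannot be told apart.

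The phospholipase that supplies the pathway differed little in CAKi-1 and was lower in 786O A4KO. *PLA2G4A* (chr1:186828949-186988981) was measured at 2.60, 2.72, 2.23 and 2.52 TPM in the CAKi-1 WT libraries and at 3.04, 3.08, 3.16, 3.04 and 2.54 TPM in A4KO, so that 1 A4KO library fell within the WT range. Its log2 fold change was 0.18 (SE 0.0645) on the log2(TPM + 1) scale, which is used for all fold changes here and understates those of low genes. In 786O it read 0.851, 1.04 and 0.891 TPM in WT and 0.552, 0.599 and 0.509 TPM in A4KO, without overlap (log2 fold change -0.31, SE 0.0501).

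The cyclooxygenases differed in opposite directions in CAKi-1, with *PTGS1* lower and *PTGS2* higher on average in A4KO. *PTGS1* (chr9:122370530-122395703) read 6.64, 6.50, 6.31 and 5.01 TPM in WT libraries and 1.42, 1.55, 1.44, 1.44 and 2.0 TPM in A4KO. A4KO libraries held 0.257 of the WT mean (log2 fold change -1.47, SE 0.0917, and -1.42, SE 0.106, without A4KO replicates 1 and 4), the groups were far apart, and those replicates lay among or next to the rest. *PTGS2* (chr1:186671791-186680922) read 0.784, 1.18, 1.81 and 3.27 TPM in WT libraries and 11.3, 3.18, 2.70, 8.29 and 2.62 TPM in A4KO. Here WT replicate 4 exceeded 3 of the A4KO libraries, and the high A4KO mean of 5.62 ± 3.96 TPM (SD, n = 5) rested on replicates 1 and 4. The log2 fold change of *PTGS2* was 1.14 (SE 0.420), and 0.55 (SE 0.270) without those 2 libraries. Without WT replicate 4 it was 1.38 (SE 0.438).

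The ratio of *PTGS2* to *PTGS1* TPM in a library separated the CAKi-1 groups although *PTGS2* alone did not. It was 0.118, 0.181, 0.287 and 0.653 in WT and 7.98, 2.05, 1.87, 5.77 and 1.31 in A4KO, so the constitutive isoform was the more abundant mRNA in all 4 WT libraries and the inducible one in all 5 A4KO libraries. In 786O both isoforms were low. *PTGS1* read 0.620, 0.968 and 0.812 TPM in WT and 0.613, 0.829 and 0.872 TPM in A4KO, a log2 fold change of -0.02 (SE 0.0904) that became 0.11 under quantile normalization. *PTGS2* read 0.683, 0.881 and 1.01 TPM in WT and 0.382, 0.511 and 0.529 TPM in A4KO (log2 fold change -0.33, SE 0.0768). The ratio in 786O went the other way, from 1.10, 0.910 and 1.24 in WT to 0.623, 0.616 and 0.607 in A4KO. GENCODE places the antisense gene *PACERR* across the start of *PTGS2*, and as no strand setting is stated, its reads cannot be told apart from those of *PTGS2* where they overlap.

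Of the 3 prostaglandin E synthases, *PTGES*, the inducible membrane enzyme, differed most between CAKi-1 groups. *PTGES* (chr9:129738331-129753042) read 2.67, 2.53, 3.42 and 6.17 TPM in CAKi-1 WT and 26.1, 8.14, 7.44, 20.4 and 6.91 TPM in A4KO. All 5 A4KO libraries were above all 4 WT libraries, with replicates 1 and 4 the highest, and the mean was 3.73 times that of WT (log2 fold change 1.52, SE 0.410). Without replicates 1 and 4 the ratio of means was 2.03 and the log2 fold change 0.91 (SE 0.235), under the threshold of 1. In 786O *PTGES* was 3.55, 2.65 and 3.47 TPM in WT and 2.24, 1.99 and 2.20 TPM in A4KO, again without overlap but lower in A4KO (log2 fold change -0.42, SE 0.0929).

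The abundant synthases, *PTGES2* and *PTGES3*, differed by less in CAKi-1 and were higher in 786O A4KO. *PTGES2* (chr9:128120693-128128462) overlapped in CAKi-1, with 72.2 to 85.5 TPM in WT and 66.2 to 81.7 TPM in A4KO (72.2 to 81.7 TPM without replicates 1 and 4). In 786O it was 56.2 to 58.2 TPM in WT against 80.6 to 85.8 TPM in A4KO (log2 fold change 0.54, SE 0.0394). *PTGES3* (chr12:56663341-56688408), also known as the HSP90 co-chaperone p23, was 590 to 620 TPM in CAKi-1 WT and 405 to 533 TPM in A4KO (log2 fold change -0.36, SE 0.0966), with replicates 1 and 4 the lowest. Without them the log2 fold change was -0.22 (SE 0.0404). In 786O it was 316 to 322 TPM in WT and 436 to 458 TPM in A4KO (log2 fold change 0.48, SE 0.0361), so *PTGES3*, like *PTGES*, differed without overlap in opposite directions in the lines. Its level is uncertain, since GENCODE lists 5 processed pseudogenes of *PTGES3*, of which 1, *PTGES3P1*, had its own row in the CAKi-1 table at 0.308 to 3.11 TPM.

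As a share of the summed TPM of the 3 prostaglandin E synthases, *PTGES* was small in all libraries and differed between groups. It made up 0.386%, 0.360%, 0.514% and 0.867% in CAKi-1 WT and 5.21%, 1.34%, 1.2%, 4.15% and 1.16% in A4KO. In 786O it made up 0.932%, 0.702% and 0.908% in WT and 0.424%, 0.381% and 0.406% in A4KO. In both lines the groups did not overlap, and the inducible cyclooxygenase and the inducible synthase thus gained weight among their isoforms in CAKi-1 A4KO and lost it in 786O A4KO.

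**Figure D2:**
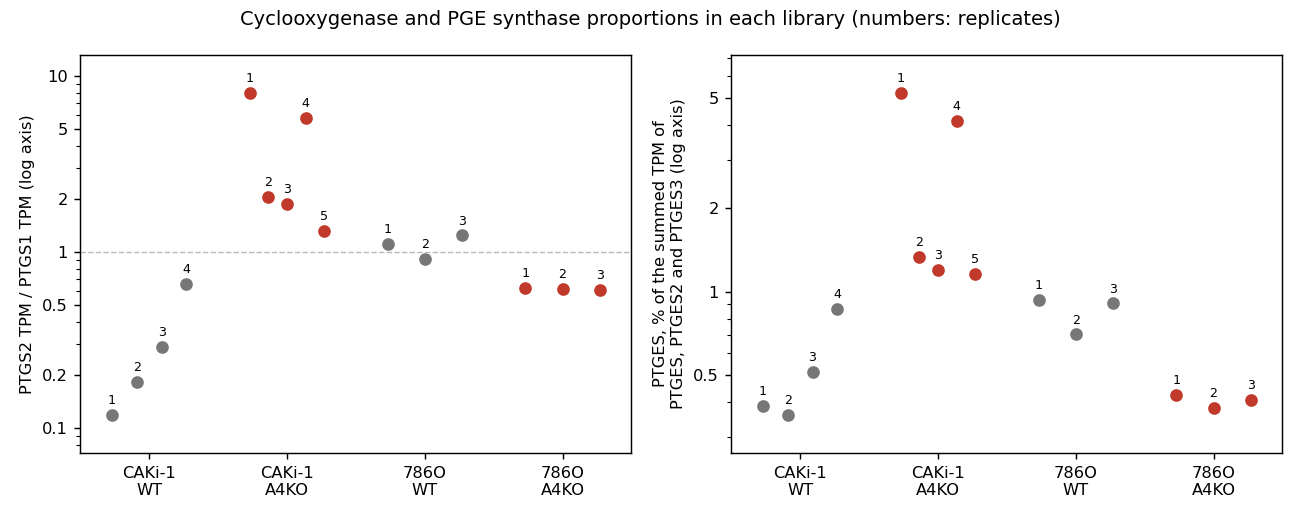
Ratio of *PTGS2* to *PTGS1* TPM (left, log axis, dashed line at 1) and *PTGES* as a percent of the summed TPM of *PTGES*, *PTGES2* and *PTGES3* (right, log axis), one point per library numbered by replicate. Both measures are higher in A4KO than in WT in CAKi-1, most in replicates 1 and 4, and lower in A4KO than in WT in 786O.

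*PTGS2* and *PTGES* also varied together among CAKi-1 libraries of the same genotype. After the mean of each genotype was taken off log2(TPM + 1), their Pearson r over the 9 libraries was 0.987, 0.951 without A4KO replicates 1 and 4, 0.984 without WT replicate 4, and 0.822 over the 6 libraries left without all of these. The 5 genes most like *PTGS2* among 12742 genes with a mean of at least 1 TPM were *SLC25A37* (r = 0.990), *SUSD6* (0.987), *PTGES*, *FMOD* (0.985) and *TNFSF14* (0.983). Those most like *PTGES* were *SIPA1L2* (r = 0.992), *FMOD* (0.989), *MOAP1* (0.987), *PTGS2* and *PLOD2* (0.987). The points share their libraries. *FMOD* shows that such likeness does not fix the direction between genotypes, since it was 18.5 to 23.5 TPM in WT and 7.98 to 12.9 TPM in A4KO.

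The prostaglandin D synthase *PTGDS* had the widest fold range of the 10 genes. This enzyme, a lipocalin that also carries small lipids, lies at chr9:136975092-136981742, where GENCODE has a second gene model on the same strand whose reads could be shared with it. In 786O WT it reached 309, 301 and 315 TPM, above 97.3% of the genes of that line, and in A4KO it was 1.29, 1.36 and 1.83 TPM. That is 206 times less on average (log2 fold change -6.96, SE 0.0835), and the 3 libraries of each group were close to each other. In CAKi-1 the direction was opposite and the levels were low, with 5.36, 4.03, 3.72 and 3.10 TPM in WT and 29.0, 11.2, 13.4, 28.7 and 7.66 TPM in A4KO. The groups did not overlap (log2 fold change 1.76, SE 0.367), and without A4KO replicates 1 and 4 the log2 fold change was 1.21 (SE 0.200). This gene also set what the 10 genes add up to in 786O, where *PTGES3* made up 44.0% to 44.3% of their summed TPM in WT and 81.9% to 83.3% in A4KO.

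Of the receptors for prostaglandin E2, EP2 and EP4 were near the lower end in CAKi-1 WT and well above it in 786O WT. *PTGER2* (EP2, chr14:52314305-52328598) read 0.670, 0.402, 0.384 and 0.636 TPM in CAKi-1 WT and 4.77, 2.53, 2.92, 3.83 and 3.09 TPM in A4KO. The A4KO mean was 6.55 times the WT mean (log2 fold change 1.52, SE 0.139), and 5.44 times without replicates 1 and 4 (log2 fold change 1.34, SE 0.0899). In 786O it read 20.3, 17.6 and 17.0 TPM in WT and 2.38, 2.02 and 2.39 TPM in A4KO, 8.07 times less (log2 fold change -2.56, SE 0.0810). The genes around it were lower in 786O A4KO too, as the 25 expressed genes on each side had a median log2 fold change of -0.80 and the genes of chromosome 14 one of -0.77. With the neighbours' median taken off, the log2 fold change of *PTGER2* was -1.76 (SE 0.0793).

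*PTGER4* (EP4, chr5:40679915-40693735) was lower in 786O A4KO and overlapped in CAKi-1. It read 9.14, 9.04 and 8.06 TPM in 786O WT and 2.34, 1.19 and 1.78 TPM in A4KO, 4.95 times less (log2 fold change -1.84, SE 0.151). In CAKi-1 it was low, with 0.333, 0.279, 0.264 and 0.153 TPM in WT and 0.254, 0.222, 0.318, 0.740 and 0.268 TPM in A4KO (log2 fold change 0.10, SE 0.105, and 0.02, SE 0.0602, without A4KO replicates 1 and 4). The ratio of *PTGER2* to *PTGER4* TPM was thus 1.44 to 4.17 in CAKi-1 WT and 5.17 to 18.7 in A4KO (9.21 to 11.5 without replicates 1 and 4, which hold both ends), against 1.94 to 2.22 in 786O WT and 1.02 to 1.70 in A4KO.

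*ALOX5AP* (chr13:30713478-30764426), which encodes FLAP, was higher in CAKi-1 A4KO and lower in 786O A4KO. It read 1.47, 1.70, 1.61 and 1.36 TPM in CAKi-1 WT and 5.63, 6.85, 4.69, 4.88 and 5.23 TPM in A4KO, 3.56 times more (log2 fold change 1.34, SE 0.0945). Replicates 1 and 4 lay among the other A4KO libraries, and without them the log2 fold change was 1.37 (SE 0.110). In 786O it read 5.43, 5.28 and 6.14 TPM in WT and 1.57, 1.61 and 1.25 TPM in A4KO, 3.81 times less (log2 fold change -1.42, SE 0.0782), while its neighbours on chromosome 13 had a median of 0.53. *ALOX5AP* is also used by leukocytes. In CAKi-1 6 of the 8 leukocyte markers had a row, with *CD3E* and *SPI1* absent, and their sum, most of it *CD68*, was 58.9 to 61.7 TPM in WT and 53.6 to 65.4 TPM in A4KO. In 786O 4 had a row, with *CD3E*, *LYZ*, *ITGAM* and *SPI1* absent, and the sum, most of it *CD68*, was 46.4 to 47.5 TPM in WT and 21.1 to 22.0 TPM in A4KO. The macrophage receptor gene *CSF1R*, chosen from these markers after the values were seen, differed in the same directions as *ALOX5AP*, with 1.2 to 2.0 TPM in CAKi-1 WT and 2.42 to 4.69 TPM in A4KO, and with 3.36 to 3.64 TPM in 786O WT and 0.446 to 1.17 TPM in A4KO. The other 5 markers with a row overlapped between the groups in CAKi-1, and in 786O *CD68* was lower in A4KO while *PTPRC* and *CD14* overlapped. The part of *CSF1R* in the difference of *ALOX5AP* was not tested.

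Markers of other cell types also differed between the groups, but not all in one direction within a list. In CAKi-1 the summed TPM of the 6 fibroblast markers was 24.4 to 34.1 in WT and 48.4 to 72.7 in A4KO. Most of this difference was *COL1A1*, at 9.35 to 11.8 TPM in WT and 30.0 to 45.2 TPM in A4KO, while *LUM* was lower in A4KO (3.10 to 4.07 against 1.17 to 2.27 TPM) and *COL1A2*, *PDGFRA*, *PDGFRB* and *DCN* overlapped. The 1 endothelial marker with a row, *PECAM1*, was 0.209 to 0.555 TPM in WT and 1.54 to 6.17 TPM in A4KO (1.54 to 2.32 TPM without replicates 1 and 4). The 8 renal markers with a row summed to 2736 to 3663 TPM in WT and 1437 to 1859 TPM in A4KO, with *KRT8* and *KRT18* lower, *PAX8* overlapping and *CDH6* higher (5.94 to 11.3 against 15.4 to 19.3 TPM). In 786O the 10 renal markers summed to 2872 to 2944 TPM in WT and 2411 to 2457 TPM in A4KO. Of these, 7 were lower without overlap, among them *CDH6* (211 to 218 against 43.0 to 44.4 TPM), *NNMT* (795 to 816 against 302 to 312 TPM) and *CA9* (6.65 to 8.10 against 0.116 to 0.469 TPM), and *PAX2* (10.6 to 11.4 against 38.4 to 44.1 TPM) and *CD70* (676 to 721 against 1118 to 1185 TPM) were higher. The 5 fibroblast markers with a row summed to 10.3 to 14.2 and 8.97 to 11.5 TPM. Within these fibroblast sums *LUM* was lower in A4KO (6.54 to 8.77 against 1.15 to 1.40 TPM) and *PDGFRB* higher (0.354 to 0.491 against 3.47 to 5.63 TPM). *PECAM1* was 0.850 to 1.44 TPM in WT and 0.411 to 0.563 TPM in A4KO. Their part in the differences of the pathway genes was not tested.

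**Figure D3:**
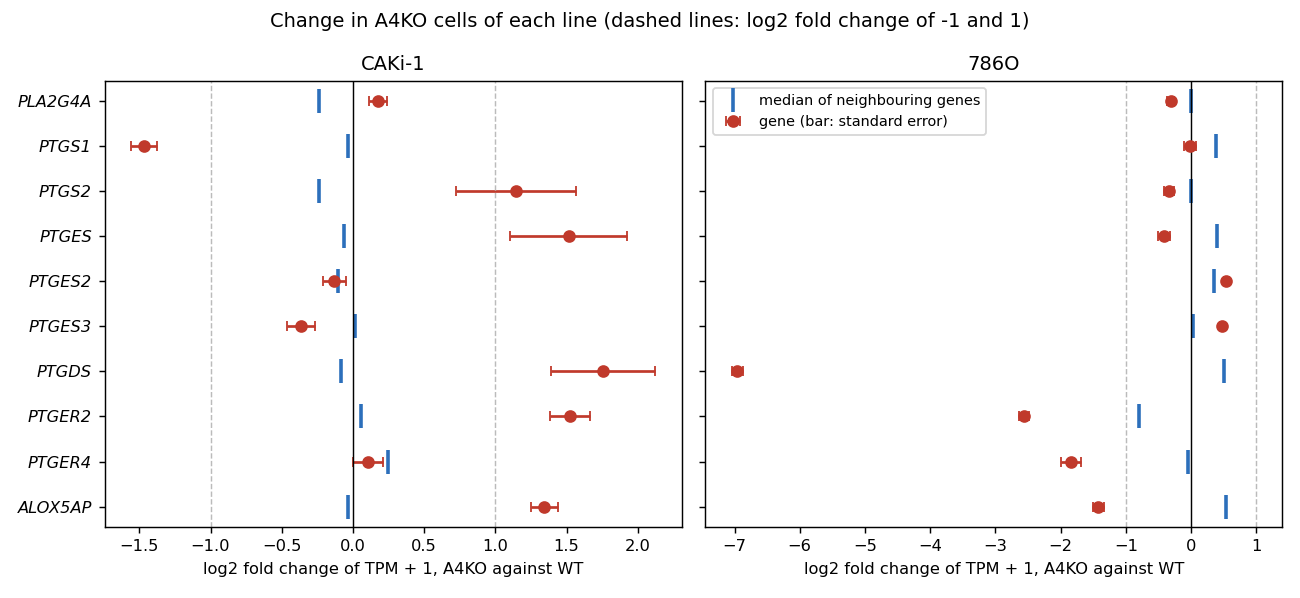
Log2 fold change of TPM + 1 in A4KO against WT for the 10 genes (red, bars are the standard error) and the median of the 25 expressed neighbours on each side (blue), in CAKi-1 (left) and 786O (right, wider axis). *PTGDS*, *PTGES*, *PTGER2* and *ALOX5AP* lie to the right of 0 in CAKi-1 and to the left in 786O, and the neighbours of *PTGER2* also lie to the left in 786O.

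Chromosome 9, which carries 4 of the 10 genes, was higher as a whole in 786O A4KO, with a median log2 fold change of 0.27. With the median of the neighbours taken off, *PTGES2* was 0.19 (SE 0.0501) in place of 0.54, *PTGES* was -0.82 (SE 0.0911), *PTGS1* -0.40 (SE 0.0984) and *PTGDS* -7.47 (SE 0.0809). In CAKi-1 the neighbours of *PTGS2* and *PLA2G4A*, which lie close together on chromosome 1, had a median of -0.24, and *PLA2G4A* was 0.41 (SE 0.0713) with it taken off. *PTGS2* was 1.38 (SE 0.401) in place of 1.14, and the number of the 10 genes called in CAKi-1 was then 6 in place of 5. The neighbours of *PTGER4* there had a median of 0.25, and with it taken off *PTGER4* turned from 0.10 to -0.14 (SE 0.0927).

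The other genes of the eicosanoid pathways were examined in a list of 53 that leaves out the 10 above, and these were tested. The list too was chosen with earlier results of these data known, so its p-values and counts are not an independent test. In CAKi-1 42 had a row, 2 were called higher and 0 lower, and by limma adjusted p alone 11 rose, 5 fell and 26 did not pass, with a median log2 fold change of 0.02. In 786O 43 had a row, 0 were called higher and 6 lower, and 9 rose, 17 fell and 17 did not pass, with a median of -0.06. Over all genes, 2.21% were called higher and 1.12% lower in CAKi-1, and 2.43% and 5.19% in 786O, while 17.9% rose and 21.1% fell by adjusted p in CAKi-1, and 27.5% and 33.5% in 786O. Without a row in either line were *PLA2G2A*, *HPGDS*, *PTGDR*, *DPEP1*, *DPEP2*, *CYP4F2*, *ALOX15*, *ALOX15B* and *ALOX12B*, and the tables list no gene at 0, so these are genes that were not above 0 in all libraries or were left out for another reason.

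Of 11 listed genes of arachidonic acid release and handling, 2 rose and 3 fell in CAKi-1. *ACSL4*, which activates arachidonic acid by joining it to coenzyme A, was 81.3, 87.6, 94.8 and 125 TPM in WT and 428, 173, 149, 419 and 155 TPM in A4KO (log2 fold change 1.28, SE 0.359, limma adjusted p = 0.0194). All A4KO libraries were above WT, replicates 1 and 4 by far, and without those the log2 fold change was 0.72. The call also depended on WT libraries, with a limma adjusted p of 0.0541 without WT replicate 1 and 0.0521 without WT replicate 2. *PLA2G6*, a calcium-independent phospholipase A2, was 3.04 to 4.81 TPM in WT and 4.25 to 13.1 TPM in A4KO (log2 fold change 0.80, SE 0.280, limma adjusted p = 0.0485), which missed the threshold in most alternatives, and it was 0.38 (limma adjusted p = 0.0959) without A4KO replicates 1 and 4. In 786O 3 rose and 2 fell, with *ACSL4* at 56.9 to 59.0 TPM in WT and 65.5 to 70.9 TPM in A4KO (log2 fold change 0.24, SE 0.0440, limma adjusted p = 0.00378).

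Among the 7 listed genes of prostanoid synthesis, 2 of the 6 with a row rose in CAKi-1 and 0 fell. *AKR1B1*, an aldo-keto reductase that can make prostaglandin F2 alpha, was 591, 675, 844 and 1468 TPM in WT and 2026, 1702, 1625, 1832 and 1586 TPM in A4KO (log2 fold change 1.06, SE 0.232, limma adjusted p = 0.00636), with WT replicate 4 close to the A4KO range. Its log2 fold change was under the threshold of 1 without WT replicate 1 (0.89, limma adjusted p = 0.0183), without WT replicate 2 (0.95, limma adjusted p = 0.0229) and without A4KO replicates 1 and 4 (0.97, limma adjusted p = 0.0316). *AKR1C3*, which reduces prostaglandins D2 and H2 and has close paralogs that may share reads with it, was 83.2 to 94.8 TPM in WT and 117 to 226 TPM in A4KO (log2 fold change 0.74, SE 0.193, limma adjusted p = 0.0147). Without A4KO replicates 1 and 4 its log2 fold change was 0.44 (limma adjusted p = 0.00241), and without WT replicates 3 and 4 its limma adjusted p was 0.0871. With the median of the neighbours taken off its log2 fold change was 1.01 (limma adjusted p = 0.00447), past the threshold of 1. In 786O 2 rose and 4 fell. *PTGIS*, prostacyclin synthase, was 10.9, 10.9 and 10.6 TPM in WT and 0.0309, 0.00988 and 0.131 TPM in A4KO (log2 fold change -3.48, SE 0.0522, limma adjusted p = 2.2e-07). *AKR1C3* was 68.2 to 70.9 TPM in WT and 30.7 to 33.7 TPM in A4KO (log2 fold change -1.07, SE 0.0465, limma adjusted p = 7.91e-06). In CAKi-1 *PTGIS* was 0.365 to 0.673 TPM in WT and 0.415 to 0.813 TPM in A4KO (log2 fold change 0.10, limma adjusted p = 0.426).

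Of the 5 genes of prostaglandin transport and breakdown, 4 fell and 0 rose in 786O. *SLCO2A1*, the transporter that takes prostaglandins into the cell for breakdown, was 17.4, 15.2 and 16.9 TPM in WT and 0.0322, 0.101 and 0.0770 TPM in A4KO (log2 fold change -4.03, SE 0.0591, limma adjusted p = 2.04e-07), and it had no row in CAKi-1. *HPGD*, which inactivates prostaglandin E2, fell from 4.03 to 4.81 TPM in WT to between 2.41 and 2.70 TPM in A4KO (log2 fold change -0.64, SE 0.0668, limma adjusted p = 2.98e-04). *PTGR1*, the next enzyme of breakdown, was 134 to 140 TPM in 786O WT and 80.2 to 84.5 TPM in A4KO (log2 fold change -0.71, SE 0.0389, limma adjusted p = 1.83e-05). It rose in CAKi-1, the 1 gene of the 4 measured there to pass, from 55.2 to 58.8 TPM to between 68.5 and 77.7 TPM (log2 fold change 0.38, SE 0.0506, limma adjusted p = 4.78e-04).

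Of the other prostanoid receptors, *PTGFR*, the receptor for prostaglandin F2 alpha, was lower in 786O A4KO and higher in CAKi-1 A4KO, as *PTGER2* was. It was 3.13, 3.14 and 3.08 TPM in 786O WT and 0.236, 0.239 and 0.156 TPM in A4KO (log2 fold change -1.77, SE 0.0410, limma adjusted p = 9.17e-07). In CAKi-1 it was 2.24, 2.05, 1.87 and 1.38 TPM in WT and 4.55, 2.86, 2.26, 4.66 and 2.80 TPM in A4KO (log2 fold change 0.59, SE 0.177, limma adjusted p = 0.0258), where the highest WT and the lowest A4KO library nearly met. Without WT replicate 3 or 4 its limma adjusted p in CAKi-1 was 0.0579 or 0.0716, and without A4KO replicates 1 and 4 its log2 fold change was 0.34 (limma adjusted p = 0.0493). In all, 1 of the 6 receptors measured in CAKi-1 rose and 1 fell, and of 5 in 786O 1 rose and 2 fell.

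In the leukotriene branch the enzyme that FLAP serves did not pass the test in either line. *ALOX5*, 5-lipoxygenase, was 0.407 to 1.82 TPM in CAKi-1 WT and 0.161 to 1.5 TPM in A4KO (log2 fold change -0.20, SE 0.252, limma adjusted p = 0.576). In 786O it was 0.950 to 1.72 TPM in WT and 0.137 to 1.22 TPM in A4KO (log2 fold change -0.43, SE 0.261, limma adjusted p = 0.199), with wide spreads in both. *LTC4S*, leukotriene C4 synthase, was 4.58, 5.36 and 5.64 TPM in 786O WT and 0.245, 0.333 and 0.659 TPM in A4KO (log2 fold change -2.14, SE 0.122, limma adjusted p = 2.16e-05) and had no row in CAKi-1. *MGST3*, a microsomal glutathione transferase that can also make leukotriene C4, fell in both lines, from 320 to 336 TPM to between 197 and 226 TPM in CAKi-1 (log2 fold change -0.64, SE 0.0525, limma adjusted p = 3.81e-05) and from 164 to 166 TPM to between 103 and 115 TPM in 786O (log2 fold change -0.60, SE 0.0476, limma adjusted p = 8.62e-05). Of the listed leukotriene synthesis and conversion genes, 2 of 7 rose and 1 fell in CAKi-1, and 2 of 8 rose and 2 fell in 786O.

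The leukotriene B4 receptors *LTB4R* and *LTB4R2* rose in CAKi-1 and fell in 786O, and the 2 cysteinyl leukotriene receptors did not pass in either line. *LTB4R* was 0.890 to 1.11 TPM in CAKi-1 WT and 1.27 to 2.28 TPM in A4KO (log2 fold change 0.44, SE 0.108, limma adjusted p = 0.0106, and 0.29 without A4KO replicates 1 and 4), and 5.41, 5.84 and 5.84 TPM in 786O WT against 1.78, 1.77 and 1.72 TPM in A4KO (log2 fold change -1.28, SE 0.0407, limma adjusted p = 2.6e-06). *LTB4R2* was 1.07 to 1.25 TPM in CAKi-1 WT and 1.76 to 2.76 TPM in A4KO (log2 fold change 0.50, SE 0.0882, limma adjusted p = 0.0021), and 5.41 to 5.68 TPM in 786O WT against 2.18 to 2.59 TPM in A4KO (log2 fold change -0.92, SE 0.0567, limma adjusted p = 2.93e-05). These genes lie on chromosome 14, where their GENCODE models overlap so that reads may be shared, and with the median of the neighbours taken off the 786O log2 fold change was -0.43 for *LTB4R* and -0.05 (limma adjusted p = 0.467) for *LTB4R2*. Between 41 genes of the list with a row in both tables, the groups did not overlap in opposite directions for 6 and in the same direction for 5, beside 16.1% and 12.2% of all genes in both tables, and 0 were called higher in CAKi-1 and lower in 786O.

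**Figure D4:**
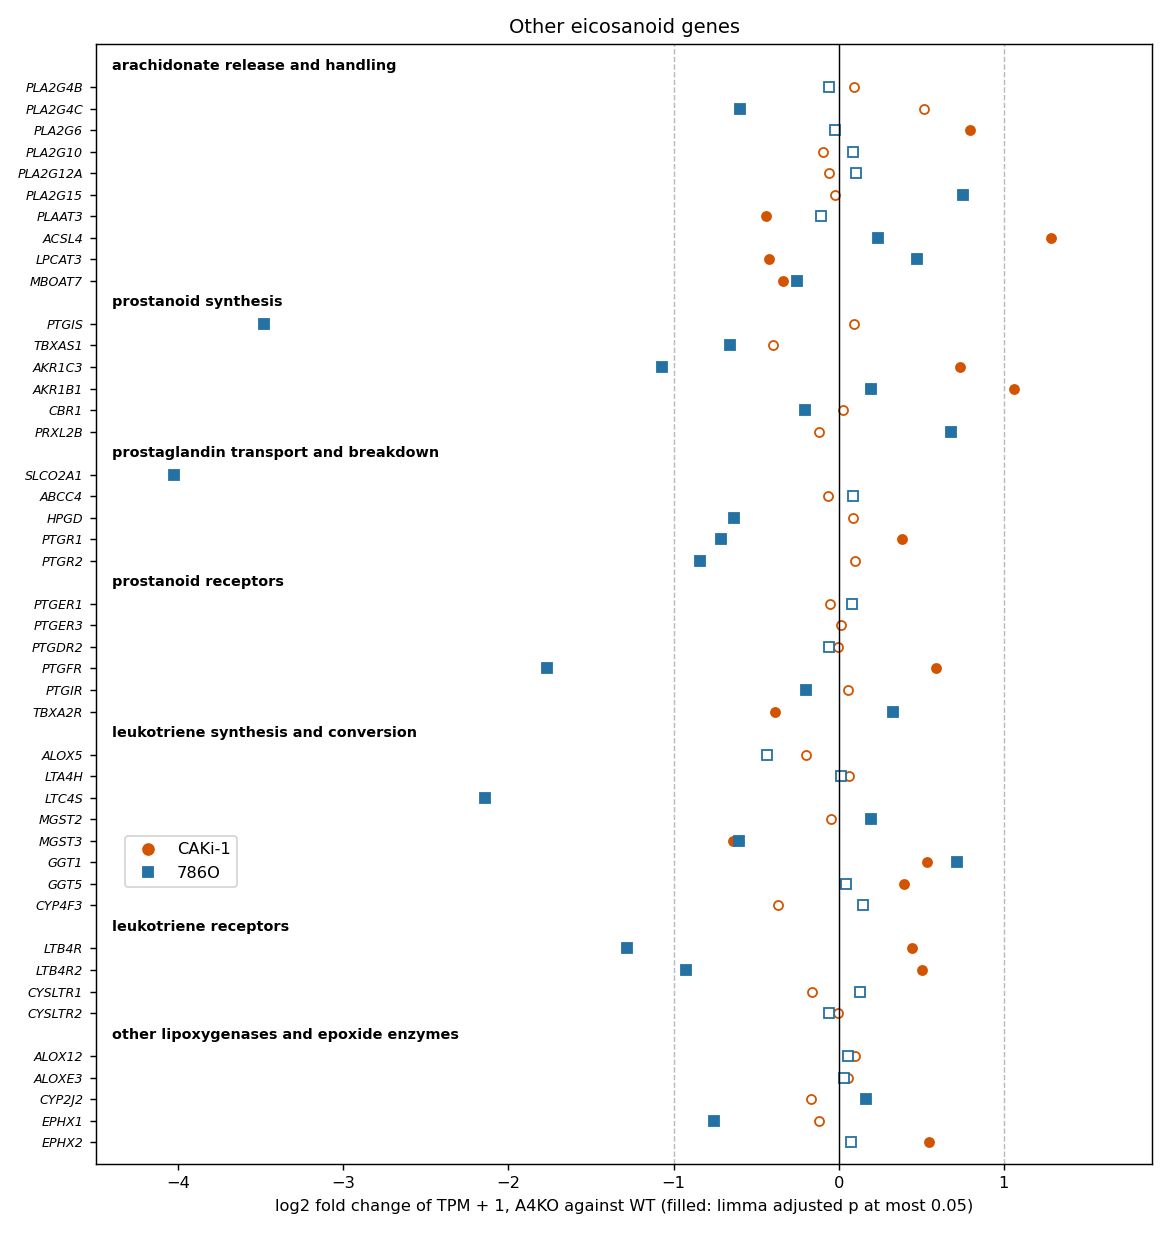
Log2 fold change of TPM + 1 in A4KO against WT for the other listed eicosanoid genes by role, CAKi-1 as circles and 786O as squares, filled where the limma adjusted p is at most 0.05. The largest falls are those of *SLCO2A1* (-4.03), *PTGIS* (-3.48) and *LTC4S* (-2.14) in 786O, and the largest rise is that of *ACSL4* in CAKi-1 (1.28).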

How the data were processed

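RNA-seq libraries from WT and A4KO cells of CAKi-1 and 786O were analysed from 1 expression table for each line. The authors pseudoaligned paired-end poly(A) reads to hg38 with Kallisto and deposited values for each gene and library that are TPM, a unit inferred from their totals and from the authors' tool. How transcripts were summed to genes, which genes were left out and the strand setting are not given in the sources used here. The labels state a nominal 3000000 reads per sample, and TPM keeps no read number for each library. Groups and replicate numbers were taken from the labels.

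The deposited TPM were taken as log2(TPM + 1), and A4KO was set against WT within each line by limma 3.58.1 (R 4.3.3). Tests were two-sided, no filter was set, and p-values were adjusted by Benjamini and Hochberg's method across the genes of that line. Calls required a log2 fold change of 1 or more in size with an adjusted p of 0.05 or less, the cut-offs of the study. Tested on simulated data with 200 changed genes, the fit recovered 97% (CAKi-1) and 99.5% (786O) of them with 0 false calls. Neighbour-centred values had the median deviation of up to 25 neighbours with a mean log2 value of 1 or more on either side taken off in each library.

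The 10 genes, the list of 53 other genes and the marker lists were chosen with earlier results of these data known. Of the 53, named are all called genes and, up to 4 per line, the next by absolute log2 fold change among those that passed. *ALOX5*, *HPGD*, *PTGR1*, *MGST3* and *LTB4R2* were named outside this rule after their values were seen. Genes most like *PTGS2* and *PTGES* were ranked by Pearson r as described with them. Positions are from GENCODE release 44 on hg38 and start regions from RefSeq on GRCh38.p14, where all 10 genes had 1 or more starts. Alternatives were a pseudocount of 0.1, a mean of at least 1 TPM, quantile normalization, limma's trend and robust options, a replicate block, neighbour-centred values, each library left out in turn, and CAKi-1 without A4KO replicates 1 and 4 or without WT replicates 3 and 4. The r of *PTGS2* with *PTGES* with libraries left out was added after seeing the data. Replicate numbers were not used as pairs, because the deviations of libraries with the same number correlated between -0.0540 and 0.124 in CAKi-1 and between -0.0272 and 0.0210 in 786O.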

Additional observations from a re-analysis of the deposited data

Results flagged for a closer look

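Among 44 groups of 4 or 5 CAKi-1 libraries examined, 1 library stood apart from its group in 4, where chance gives about 1 in 20. These were *PTGS1* in A4KO replicate 5 (2.0 TPM), *PTGER4* in A4KO replicate 4 (0.740 TPM), *PLA2G4A* in A4KO replicate 5 (2.54 TPM) and *LTB4R2* in A4KO replicate 1 (2.76 TPM).

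For 10 of the genes described all A4KO libraries lay on one side of all WT libraries in CAKi-1 and on the other side in 786O, as for 16.1% of all genes in both tables. The log2 fold change in CAKi-1 minus that in 786O was 8.72 for *PTGDS*, 4.08 for *PTGER2*, 2.76 for *ALOX5AP*, 1.93 for *PTGES* and -0.84 for *PTGES3*, genes that were chosen with these values known. It was 2.36 for *PTGFR*, 1.81 for *AKR1C3* and 1.72 for *LTB4R*, which were named because they were called in 786O. For *LTB4R2* and *PTGR1*, named after their values were seen, it was 1.43 and 1.09. These differences between the lines were not tested.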

How the results depend on the processing

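The number of the 10 genes called was 5 in CAKi-1 and between 4 and 6 over all alternatives, and 4 in 786O under all of them. With a pseudocount of 0.1 the genes called among all genes were 1077 in CAKi-1 (543 with 1) and 2095 in 786O (1233 with 1), as low genes then reach a log2 fold change of 1. Of the other listed genes 2 were called in CAKi-1, but 0 without A4KO replicates 1 and 4 1 without WT replicates 3 and 4, and 3 with a pseudocount of 0.1 or with neighbour-centred values. With each library left out in turn this count was between 0 (without WT replicate 1 or without WT replicate 2) and 2, and it was 6 in 786O. The 786O count was 7 with a pseudocount of 0.1, 8 with neighbour-centred values (without *LTB4R*) and 6 under the other alternatives. *PLA2G6* in 786O, at -0.02 and not past the threshold, was 0.12 under quantile normalization, 0.31 with neighbour-centred values and between -0.15 and 0.13 with each library left out. The cause was not tested. With the replicate block 603 genes were called in CAKi-1 and 1233 in 786O, and 6 and 4 of the 10 genes. TPM sets no counting error, so how far low values such as those of *PTGER4* in CAKi-1 are limited by depth is not known. Only the nominal depth of 3000000 reads per sample is stated.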
